A study of Mus musculus with 24 samples.

Results

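Neutrophils enter an injured lung along gradients of small secreted proteins, and 10 mouse genes of that route were followed here through whole-tissue RNA sequencing. The rule that set them is a list of names: the chemokine ligands Cxcl1, Cxcl2, Cxcl5 and Cxcl15, the growth factor Csf3, the receptors Cxcr2 and Fpr1, and the granule or cytosol genes S100a8, S100a9 and Retnlg. All 10 were found by gene identifier in the lung table of 36109 genes and in the retina table of 36595 genes. Each tissue came from 12 mice in 4 groups of 3. WT-RA and WT-O2 are wild type littermates kept in room air or in hyperoxia, and KO-RA and KO-O2 are GSDMD-KO mice kept likewise. The knockout was global, on a C57/B6 background, and came from a small CRISPR deletion in gasdermin D, the protein that forms membrane pores when inflammatory caspases cut it. Lungs were taken on postnatal day 15 after 85% or 21% oxygen up to postnatal day 14. Retinas were taken on postnatal day 18 from other mice, after 75% oxygen from day 7 to day 12 and recovery in room air, or after room air throughout. The comparisons ask how hyperoxia moved these genes in each genotype and whether the genotypes differed.

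Epithelial cells, macrophages and endothelium secrete the ligands when interleukins or injury signals switch on NF-κB, and the ligands bind Cxcr2 on neutrophils. Csf3, granulocyte colony-stimulating factor, makes the bone marrow produce and release neutrophils, while Fpr1 lets them follow formylated peptides from bacteria and broken mitochondria. S100a8 and S100a9 pair as calprotectin, the main cytosolic protein of neutrophils, and Retnlg is a resistin-like gene of maturing neutrophils, so these 3 transcripts report on neutrophil RNA in a tissue. Cxcl15, lungkine, differs from the other ligands in that lung epithelium makes it in health.

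The ligand genes sit in 1 cluster on chromosome 5, so the bases before their start sites can be set side by side. Promoter sequences were at hand for 8 of the 10 genes (RefSeq, GRCm38.p6, 250 bases before to 50 after the start), and not for Cxcl5 and Csf3. The 4 below are shown because Cxcl1 and Cxcl2 rose in the hyperoxic lung, the adjoining Cxcl15 did not, and Cxcl3 shares a motif with the first pair. Capitals mark 2 motifs, searched on both strands. The first, GGGAATTTCCC, is the longest run of bases that the Cxcl1, Cxcl2 and Cxcl3 windows share before their starts, so it was chosen from them, and it contains a classical NF-κB decamer. The second is the TATA box, TATAAA, which does not overlap it. The windows are chr5:90890995-90891294 for Cxcl1, chr5:90903649-90903948 for Cxcl2, chr5:90785851-90786150 for Cxcl3 and chr5:90794284-90794583 for Cxcl15, all on the plus strand and written 5′ to 3′.
Cxcl1: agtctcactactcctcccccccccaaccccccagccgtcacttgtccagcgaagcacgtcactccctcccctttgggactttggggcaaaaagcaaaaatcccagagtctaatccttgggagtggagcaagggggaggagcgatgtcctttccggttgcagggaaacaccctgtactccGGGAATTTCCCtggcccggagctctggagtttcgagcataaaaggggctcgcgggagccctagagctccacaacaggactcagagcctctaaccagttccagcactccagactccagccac
Cxcl2: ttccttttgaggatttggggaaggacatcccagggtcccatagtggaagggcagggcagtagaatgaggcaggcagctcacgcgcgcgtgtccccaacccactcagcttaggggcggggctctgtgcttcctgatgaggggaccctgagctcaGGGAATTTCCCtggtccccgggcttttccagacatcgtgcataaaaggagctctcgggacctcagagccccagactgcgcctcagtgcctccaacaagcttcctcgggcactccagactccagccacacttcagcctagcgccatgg
Cxcl3: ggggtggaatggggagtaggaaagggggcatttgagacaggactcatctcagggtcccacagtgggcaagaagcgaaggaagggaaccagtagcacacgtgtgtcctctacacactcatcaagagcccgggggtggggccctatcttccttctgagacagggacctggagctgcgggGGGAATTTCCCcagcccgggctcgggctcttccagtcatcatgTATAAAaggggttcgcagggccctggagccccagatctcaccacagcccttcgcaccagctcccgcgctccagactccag
Cxcl15: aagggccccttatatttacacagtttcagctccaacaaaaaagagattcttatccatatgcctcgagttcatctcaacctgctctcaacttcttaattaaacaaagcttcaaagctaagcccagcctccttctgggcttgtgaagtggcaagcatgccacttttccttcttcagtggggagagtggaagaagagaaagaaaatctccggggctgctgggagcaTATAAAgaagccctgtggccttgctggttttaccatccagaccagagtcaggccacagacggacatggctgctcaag

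The shared run began 71 bases before the start of Cxcl1, 97 before that of Cxcl2 and 73 before that of Cxcl3, in the same orientation each time. On either strand it was present in 14 of all 32851 promoters of this length, or 0.0426%. None of the other 8 windows at hand, those of Cxcl15 and of its neighbours Ppbp and Pf4 included, held these letters. TATAAA was present in 13.6% of all promoters, and stood 30 bases before the start in S100a8 and Cxcl3 and 27 before it in Cxcl15. It also stood 30 and 8 bases before the start in Ppbp, 227 before it in Fpr1 and 0 before it in S100a9. A match describes letters and not a bound factor.

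The lung libraries held 28763661 to 29604254 counts and the retina libraries 24863257 to 29093035. Levels are CPM, in which each library's counts are divided by its TMM-adjusted total. Surfactant protein C (Sftpc) was at 8172 to 15024 CPM in the lungs and at most 1.31 in the retinas. Gsdmd transcript, which a small deletion need not remove, was at 40.5 to 42.3 CPM in WT-RA against 32.1 to 36.4 in WT-O2, and 22.6 to 24.8 in KO-RA against 11.7 to 16.3 in KO-O2. By qRT-PCR the study reported a rise with hyperoxia in WT lungs and barely detectable transcript in knockout lungs. The sequencing levels show neither, and the reason was not tested. In the retina Gsdmd transcript was low in all groups, at 0.419 to 4.08 CPM in WT-RA and 0.635 to 0.979 in KO-RA. With hyperoxia it was at 2.90 to 5.69 CPM in WT-O2 and 1.11 to 2.95 in KO-O2, so the genotypes overlapped in either exposure. Red blood cell genes also set lungs apart: their summed level was 15746 to 18149 CPM in WT-RA against 2919 to 4151 in WT-O2, and 12674 to 26845 in KO-RA against 5968 to 29918 in KO-O2. The first KO-O2 lung stood apart by liver transcripts, with albumin (Alb) at 78.1 CPM beside 1.31 and 1.04 in the other 2 KO-O2 lungs and Ahsg at 47.4 beside 0.885 and 0.301, and the first KO-RA lung by myeloperoxidase (Mpo), at 35.8 CPM beside 0.379 and 0.237. In whole tissue, fewer cells of a type and less RNA per cell cannot be told apart.

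In the hyperoxic lung the 3 inducible CXC ligands rose in both genotypes, while S100a8, S100a9 and Retnlg did not rise with them. Cxcl1 was at 0.488, 0.437 and 0.585 CPM in the 3 WT-RA lungs and at 1.33, 3.20 and 1.76 in WT-O2. In the knockouts it was at 0.581, 0.276 and 0.203 CPM in room air and 4.20, 2.05 and 2.47 in hyperoxia. The hyperoxic lungs of each genotype all lay above its room air lungs. The log2 fold change of Cxcl1 was 2.05 (SE 0.42, adjusted p = 0.0013) in WT and 3.03 (SE 0.43, adjusted p = 8.0e-05) in GSDMD-KO, by the quasi-likelihood F-test of edgeR, with p-values adjusted after Benjamini and Hochberg over all 16819 genes tested in the lung. Without the first KO-O2 lung, which had the most Cxcl1, the latter was 2.67 and still called.

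Cxcl2, also known as MIP-2, was the scarcest ligand that could be tested. It was at 0.140, 0.269 and 0.172 CPM in WT-RA and 0.613, 0.688 and 0.912 in WT-O2. In KO-RA lungs 1, 0 and 2 reads were counted, against 86 reads in all in the KO-O2 lungs, which were at 1.08, 0.920 and 0.970 CPM. Cxcl2 rose in WT with a log2 fold change of 1.90 (SE 0.42, adjusted p = 0.0023, edgeR). In GSDMD-KO its edgeR adjusted p was 1.2e-05, and the 95% counting interval for the ratio of its 86 to 3 reads was 9.60 to 143, which covers counting error only. Its WT ratio of 65 to 17 reads was 3.80 (interval 2.20 to 6.92).

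Cxcl5, known as LIX and made largely by lung epithelium, reached the highest level of the 3. Its levels were 0.140, 0.740 and 1.13 CPM in WT-RA and 4.57, 3.65 and 4.22 in WT-O2, and 0.171, 0.103 and 0.610 in KO-RA and 5.67, 7.54 and 4.75 in KO-O2. No hyperoxic lung came near a room air lung. Cxcl5 rose with a log2 fold change of 2.61 (SE 0.50, adjusted p = 0.0012) in WT and 4.32 (SE 0.56, adjusted p = 7.2e-05) in GSDMD-KO (edgeR). Without the room air lung that had the most Cxcl5 these were 3.22 and 5.40. Thus 3 of the 9 members tested in the lung were called higher in each genotype, where called means an adjusted p under 0.1, a p under 0.05 and at least a 2-fold change. Of all genes tested, 5.04% were called higher in WT and 4.57% in GSDMD-KO. Of the 3, Cxcl2 had at most 8 reads in a room air lung. It passed the filter for low counts only through the hyperoxic lungs, so its place among the tested genes depended on its rise. The 2 hyperoxia comparisons share no mice.

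Cxcl15 behaved otherwise. It was far more abundant, with 689, 689 and 640 CPM in WT-RA against 421, 583 and 464 in WT-O2, and 640, 668 and 720 in KO-RA against 478, 489 and 493 in KO-O2. All hyperoxic lungs were below all room air lungs. Its log2 fold change was -0.46 (SE 0.11, adjusted p = 0.0029, edgeR) in WT and -0.47 (SE 0.11, adjusted p = 0.0025) in GSDMD-KO, a fall short of 2-fold and therefore not called. The markers of alveolar type 2 cells, the surfactant-making cells, were lower beside it: 5 of 9 in WT and 6 of 9 in GSDMD-KO had an adjusted p under 0.1 (24.7% and 23.4% of all genes were lower by this rule), and 1 in each was called. Their median log2 change was -0.26 and -0.35, and their summed level went from 20750 to 23474 CPM in WT-RA to 14709 to 17745 in WT-O2. Whether Cxcl15 moved with the amount of this cell type was not tested.

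**Figure D1:**
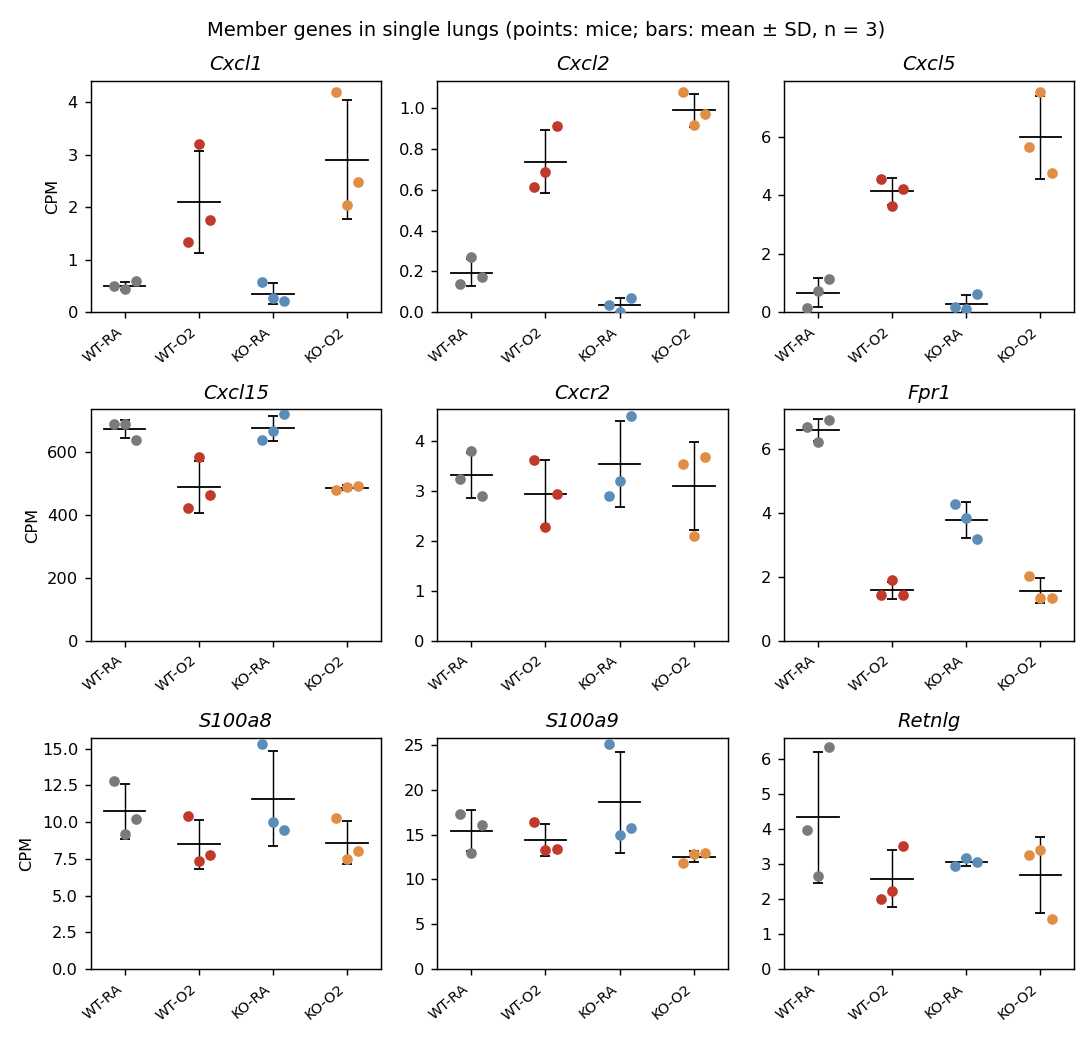
Levels of the 9 tested genes in single lungs: each panel is 1 gene, the vertical axis is CPM from 0, points are mice, and bars are the mean ± SD of 3 mice. Cxcl1, Cxcl2 and Cxcl5 stand higher in both hyperoxia groups, Cxcl15 and Fpr1 stand lower, and Cxcr2, S100a8 and Retnlg overlap between groups.

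Along chromosome 5 the cluster runs Cxcl5 (start 90759360 in the GRCm38 annotation), Ppbp, Pf4, Cxcl3, Cxcl15, Cxcl1 and Cxcl2 (end 90905938), all on the plus strand. The 3 genes that are not among the 10 are named here for their place in it. Its members did not move as a block. Ppbp, the platelet basic protein, had a log2 fold change of -0.90 (adjusted p = 0.006) in WT and -0.96 (adjusted p = 0.0041) in GSDMD-KO, while Pf4, platelet factor 4, had 0.75 (adjusted p = 0.0018) and 0.70 (adjusted p = 0.0031) (edgeR).

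Cxcl3, which carries the same run as Cxcl1 and Cxcl2, had too few reads to be tested. It had 25 reads in the WT-RA lungs against 22 in WT-O2, a ratio of 0.875 (95% counting interval 0.470 to 1.62), and 13 in KO-RA against 20 in KO-O2, a ratio of 1.56 (0.737 to 3.41). Both intervals include a ratio of 1, and the WT interval lies below the 2.20 to 6.92 of Cxcl2.

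Per kilobase of the longest annotated transcript, the room air level of Cxcl15 in WT was 316 ± 13.1 CPM per kb (SD, n = 3). On that scale Cxcl1 stood at 0.528 ± 0.0785, Cxcl5 at 0.426 ± 0.318 and Cxcl2 at 0.104 ± 0.0362. In WT-O2 the order was Cxcl15 at 230 ± 39.5, Cxcl5 at 2.63 ± 0.295, Cxcl1 at 2.20 ± 1.03 and Cxcl2 at 0.397 ± 0.0835. Cxcl1 and Cxcl5 did not differ beyond their spread in either group. The induced ligands thus remained at levels per length far below that of Cxcl15.

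**Figure D2:**
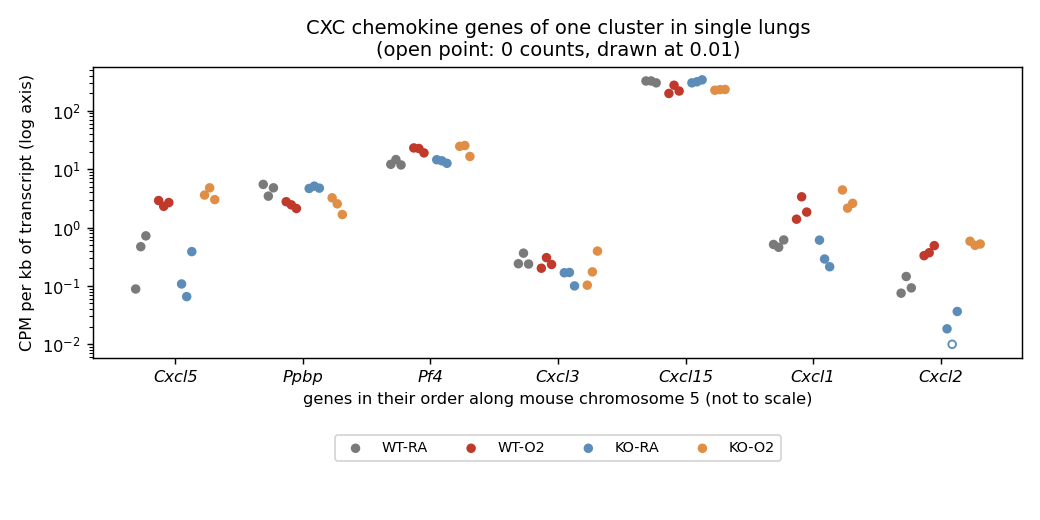
Levels of the 7 chemokine genes of the chromosome 5 cluster in their genomic order, in CPM per kb of transcript on a log axis, 1 point for each lung. Cxcl5, Cxcl1 and Cxcl2 are higher in both hyperoxia groups, Cxcl3 is not, and Cxcl15 lies far above the others; the open point is a KO-RA lung with 0 reads of Cxcl2.

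The receptors did not follow their ligands. Cxcr2 (chr1:74153989-74161246, plus strand, GRCm38) was at 3.24, 3.80 and 2.89 CPM in WT-RA against 3.61, 2.27 and 2.94 in WT-O2, and 2.90, 3.20 and 4.51 in KO-RA against 3.53, 2.09 and 3.68 in KO-O2. All 4 groups overlapped. Its log2 fold change with hyperoxia was -0.17 (95% interval -0.71 to 0.37) in WT and -0.19 (-0.72 to 0.34) in GSDMD-KO, so a doubling lies outside both intervals.

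Fpr1 (chr17:17876471-17883940, minus strand), the high-affinity formyl peptide receptor of neutrophils and monocytes, fell. It was at 6.70, 6.22 and 6.91 CPM in WT-RA and 1.43, 1.89 and 1.42 in WT-O2, and at 4.30, 3.86 and 3.19 in KO-RA and 2.03, 1.34 and 1.34 in KO-O2. Neither genotype's hyperoxic lungs overlapped its room air lungs. The log2 fold change was -2.06 (SE 0.21, adjusted p = 2.5e-06) in WT and -1.27 (SE 0.21, adjusted p = 0.00025) in GSDMD-KO (edgeR). Fpr1 was the 1 member of 9 called lower in each genotype, where 6.57% of all genes tested were called lower in WT and 6.03% in GSDMD-KO.

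Fpr2, the related receptor in the same gene family, fell beside it, with a log2 fold change of -1.85 (adjusted p = 7.0e-06) in WT and -1.08 (adjusted p = 0.00091) in GSDMD-KO. Alveolar macrophage markers moved in the same samples: of 10 tested, 6 were called lower and 1 higher in WT, and 4 lower and 1 higher in GSDMD-KO. Among them Ear1, an eosinophil-type ribonuclease of resident alveolar macrophages, had a log2 fold change of -3.60 (adjusted p = 7.6e-08) in WT, whereas Marco, a scavenger receptor of these cells, had 1.30 (adjusted p = 0.00072) (edgeR). The summed level of the list was 470 to 867 CPM in WT-RA against 218 to 409 in WT-O2, and 191 to 222 in KO-RA against 174 to 271 in KO-O2. Of 10 general macrophage and microglia genes, 4 were called higher in WT (C1qa, C1qb, C1qc and Cd68), 2 in GSDMD-KO (Cd68 and Adgre1) and none lower, although Tmem119, a microglia marker, had a log2 fold change of -0.53 (adjusted p = 0.00021) in WT and -0.40 (adjusted p = 0.0022) in GSDMD-KO (edgeR). The summed level of the 10 was 415 to 466 CPM in WT-RA against 577 to 609 in WT-O2, and 361 to 397 in KO-RA against 472 to 579 in KO-O2. The part of either cell population in the Fpr1 values was not tested.

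Csf3 (chr11:98701263-98703629, plus strand) could not be compared in the lung. Each library held 1 to 3 reads, which sums to 6 in each room air group and 4 in each hyperoxia group. A change was not detectable at this depth. Its receptor Csf3r, by contrast, was at 18.4 to 20.4 CPM in WT-RA and 20.2 to 21.6 in WT-O2, with a log2 fold change of 0.13 (adjusted p = 0.29, edgeR).

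The 3 granule and cytosol genes among the 10 did not rise in the hyperoxic lung. S100a8 (chr3:90668978-90670035, plus strand) was at 12.8, 9.18 and 10.2 CPM in WT-RA against 10.4, 7.36 and 7.73 in WT-O2, and 15.3, 10.0 and 9.46 in KO-RA against 10.3, 7.47 and 8.06 in KO-O2. The groups overlapped in both genotypes. The log2 fold change was -0.34 (95% interval -0.77 to 0.10, adjusted p = 0.21) in WT and -0.43 (-0.86 to 0.01, adjusted p = 0.11) in GSDMD-KO (edgeR).

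S100a9 (chr3:90692632-90695721, minus strand), its partner, was the most abundant of the neutrophil genes among the 10. Its levels were 17.3, 12.9 and 16.1 CPM in WT-RA against 16.4, 13.3 and 13.4 in WT-O2, and 25.1, 15 and 15.7 in KO-RA against 11.8, 12.8 and 12.9 in KO-O2. The WT groups overlapped, with a log2 fold change of -0.10 (95% interval -0.48 to 0.28, adjusted p = 0.68). In GSDMD-KO all hyperoxic lungs lay below all room air lungs, with a log2 fold change of -0.57 (SE 0.18, adjusted p = 0.020, edgeR), a fall short of 2-fold and therefore not called. It rests on the first KO-RA lung, at 25.1 CPM, without which it was -0.29 (adjusted p = 0.12). Of all genes tested in GSDMD-KO, 26.0% had hyperoxic lungs below all room air lungs, so that separation alone was common.

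Retnlg (chr16:48872621-48874496, plus strand) was at 3.98, 2.66 and 6.36 CPM in WT-RA against 2.01, 2.24 and 3.51 in WT-O2, and 2.94, 3.17 and 3.05 in KO-RA against 3.25, 3.40 and 1.44 in KO-O2. Its groups overlapped. The log2 fold change was -0.74 (SE 0.34, adjusted p = 0.10) in WT, called only when the third WT-O2 lung was left out (-1.02, adjusted p = 0.055) and at -0.35 (adjusted p = 0.41) without the third WT-RA lung, and -0.18 (SE 0.35, adjusted p = 0.71) in GSDMD-KO (edgeR).

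Upper limits of the 95% intervals for hyperoxia against room air in WT were 0.10 for S100a8, 0.28 for S100a9, 0.00 for Retnlg and 0.37 for Cxcr2 on the log2 scale. A doubling, which is 1.00 on that scale, lies above each of them. Over the 9 members the median log2 fold change was -0.17 in WT and -0.19 in GSDMD-KO, beside -0.01 over all genes tested in either genotype, since 3 members rose and the other 6 had values below 0.

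**Figure D3:**
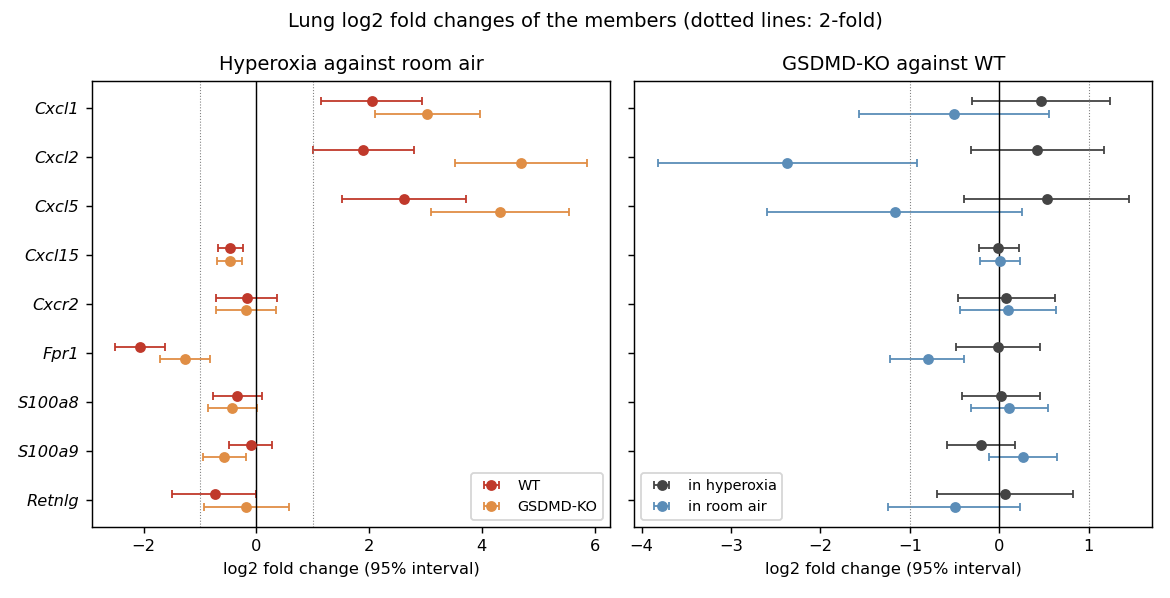
Log2 fold changes of the 9 tested genes in the lung, with 95% intervals from the edgeR fit of 12 lungs: hyperoxia against room air in each genotype on the left, GSDMD-KO against WT in each exposure on the right. The 3 induced ligands lie right of the 2-fold line on the left, and in hyperoxia every interval on the right includes 0.

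Between the genotypes no member was called in hyperoxia. Over the 9 members the log2 difference of KO-O2 from WT-O2 ran from -0.20 to 0.53, none had an unadjusted p under 0.05 by edgeR (6.21% of all genes had), and DESeq2 called none. Of all genes tested, 0.0238% were called by edgeR and 0.184% by DESeq2. Such small backgrounds hang on single lungs: with 1 mouse left out edgeR called 1 to 23 genes here, 1 to 109 for KO-RA against WT-RA and 0 to 45 for the interaction. For Cxcl1 the difference was 0.47 (95% interval -0.30 to 1.24), for Cxcl2 0.42 (-0.32 to 1.17) and for Cxcl5 0.53 (-0.39 to 1.45). Cxcl2 and Cxcl5 were higher in all 3 KO-O2 lungs than in all WT-O2 lungs, although the nearest Cxcl2 lungs were at 0.920 and 0.912 CPM. S100a9 was lower in all 3, at 11.8 to 12.9 against 13.3 to 16.4 CPM (log2 difference -0.20, interval -0.58 to 0.18). Those are 3 of 9 members without overlap, where 12.2% of all genes had none. The intervals leave room for a doubling of the 3 ligands in the knockout, and for none of the other 6.

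In room air 2 members, Cxcl2 and Fpr1, had an unadjusted p under 0.05 between the genotypes, beside 10.5% of all genes. Both were lower in the knockout lungs without overlap, as were 7.90% of all genes tested. Cxcl2 had 3 reads in KO-RA against 17 in WT-RA, so the WT-RA level was 5.69 times the KO-RA level with a counting interval of 1.65 to 30.3 (adjusted p = 0.19, edgeR). Fpr1 differed by -0.80 on the log2 scale (SE 0.19, adjusted p = 0.12, edgeR), and DESeq2 gave it an adjusted p of 0.014 with the same fold, which is short of 2-fold. Neither was called, where edgeR called 0.137% of all genes and DESeq2 0.422%. Alveolar macrophage markers were lower beside them, with 9 of 10 lower in KO-RA without overlap and a median log2 difference of -0.69; their part was not tested.

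Whether hyperoxia moved a gene more in one genotype than in the other was tested with an interaction term, and no member passed. It gave a log2 difference of 2.79 (SE 0.76, adjusted p = 0.42) for Cxcl2 and 1.70 (SE 0.78, adjusted p = 0.74) for Cxcl5, by edgeR. The fitted value for Cxcl2 rests on 3 reads in KO-RA, and with 1 mouse left out it ran from 2.26 without the second KO-RA lung to 3.63 without the third. That of Cxcl5 ran from 1.10 without the third WT-RA lung to 2.78 without the third KO-RA lung. For Fpr1 the interaction was 0.80 (SE 0.29, adjusted p = 0.62) and for Cxcl1 0.98 (SE 0.61, adjusted p = 0.85). In all, 3 of 9 members (Cxcl2, Fpr1 and Cxcl5) had an unadjusted p under 0.05, beside 6.72% of all genes, and neither edgeR nor DESeq2 called one, although DESeq2 gave no adjusted p for Cxcl2. Of all genes, 0.00595% passed by edgeR and 0.654% by DESeq2. Y-linked transcripts were present in 0 of 3 WT-RA lungs, 1 of 3 WT-O2 lungs, 2 of 3 KO-RA lungs and 3 of 3 KO-O2 lungs, so genotype and sex are partly mixed in these comparisons and cannot be told apart for each gene.

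Upstream of the ligands, 19 of the listed inducers (interleukins, tumor necrosis factor, their receptors and NF-κB genes) were tested in the lung. In WT 2 were called higher and none lower. Il6, which like the ligands is an NF-κB target, was at 0.0673 to 0.209 CPM in WT-RA and 0.954 to 2.10 in WT-O2 (log2 fold change 3.81, adjusted p = 0.0024). Tnf had a log2 fold change of 1.17 (adjusted p = 0.081) in WT and 0.48 (adjusted p = 0.46) in GSDMD-KO. In GSDMD-KO 2 were called higher, Il6 and Il1rn, the interleukin-1 receptor antagonist, whose log2 fold change was 1.15 (adjusted p = 3.6e-05) beside 0.61 (adjusted p = 0.0042) in WT (edgeR). Il6 had 154 reads in KO-O2 against 2 in KO-RA (ratio 77.9, counting interval 21.2 to 649), but its KO-O2 lungs were at 3.95, 0.637 and 0.769 CPM. Without the first of them, the lung with liver transcripts, 41 reads remained and the ratio was 31.0 (8.04 to 264).

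Among 16 other chemokines and chemoattractant receptors tested, 4 were called higher and 3 lower in WT, and 5 higher and 3 lower in GSDMD-KO. Ackr3, a scavenging receptor for Cxcl12, rose with a log2 fold change of 1.75 (adjusted p = 2.7e-08) in WT and 1.64 (adjusted p = 5.6e-08) in GSDMD-KO. Cxcr4, which retains neutrophils in marrow and is also on endothelium, fell, with log2 fold changes of -2.39 and -2.22 (adjusted p = 1.7e-06 and 3.5e-06). Ccl3, a macrophage inflammatory protein, rose by 2.62 in WT (adjusted p = 2.4e-05) and 2.72 in GSDMD-KO (adjusted p = 1.4e-05) (edgeR).

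Leukocyte adhesion molecules, on which neutrophils roll and stop in vessels, held 2 called higher and 1 lower of 11 in each genotype. Selp, endothelial and platelet P-selectin, went from 1.26 to 1.82 CPM in WT-RA to 5.78 to 9.41 in WT-O2, a log2 fold change of 2.33 (adjusted p = 5.1e-06), and rose by 2.69 (adjusted p = 3.0e-06) in GSDMD-KO. Sele, E-selectin, rose by 1.41 in WT (adjusted p = 0.027) and had 0.79 in GSDMD-KO (adjusted p = 0.32). Icam1, an endothelial and epithelial ligand of leukocyte integrins, was called in GSDMD-KO (1.23, adjusted p = 2.7e-08) and fell just short of the 2-fold line in WT, where it went from 296 to 320 CPM to 598 to 642 (adjusted p = 1.3e-07) (edgeR).

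The lists of neutrophil genes held members that rose and members that fell. Of 21 mature neutrophil markers tested, 4 were called higher and 1 lower in WT and 2 higher and 2 lower in GSDMD-KO, with medians of -0.08 and -0.01. The 4 called higher in WT were Lrg1 (log2 fold change 1.99, adjusted p = 2.8e-07) and Hp (1.01, adjusted p = 2.2e-05), which other cells make too, and Il1r2, the decoy interleukin-1 receptor (1.54, adjusted p = 0.0017), and Clec4d, a C-type lectin receptor of myeloid cells (1.08, adjusted p = 0.0019). In GSDMD-KO the 2 were Lrg1 (1.92, adjusted p = 5.1e-07) and Clec4d (1.36, adjusted p = 0.00034), while Il1r2 had 0.43 (adjusted p = 0.31). Summed, the 24 listed markers were at 524 to 575 CPM in WT-RA against 859 to 1059 in WT-O2. In the knockouts the sums were 536 to 547 CPM in KO-RA against 662 to 854 in KO-O2. Hp was the largest part, at 290 to 339 CPM in WT-RA against 562 to 741 in WT-O2, so the sum mostly follows a gene that other cells make too. Il1r2, Clec4d and, below, Cd177, Mmp8, Ltf, Ngp, Camp, Lyz2, Cybb and Ctsg are named after their values were seen. Of 13 granule protein genes tested, 1 was called higher and 2 lower in WT and 2 higher and 1 lower in GSDMD-KO, with medians of 0.00 and -0.03. The summed level of this list was 2440 to 3496 CPM in WT-RA against 2214 to 2491 in WT-O2. In the knockouts it was 2428 to 2543 CPM in KO-RA against 1774 to 2241 in KO-O2, and Lyz2 was its largest part. Lcn2, which injured epithelium makes as well as neutrophils, was the 1 called higher in WT, with 142 to 169 CPM in WT-RA against 510 to 621 in WT-O2 (log2 fold change 1.93, adjusted p = 4.8e-07, edgeR), and it rose by 2.32 in GSDMD-KO (adjusted p = 1.5e-07). The other called higher in GSDMD-KO was Cd177, a surface protein of neutrophils, with 2.03 to 3.72 CPM in KO-RA against 4.78 to 7.69 in KO-O2 (1.10, adjusted p = 0.0085) and 0.35 (adjusted p = 0.35) in WT. Short of 2-fold in WT were Mmp8, neutrophil collagenase (0.91, adjusted p = 0.0048), and Ltf, lactoferrin (0.84, adjusted p = 0.054). By an adjusted p under 0.1 alone (edgeR), 3 of the list were higher and 4 lower in WT, and 2 and 3 in GSDMD-KO. Ngp was at 5.65 to 15.7 CPM in WT-RA against 2.60 to 8.84 in WT-O2, and 8.13 to 25.4 in KO-RA against 3.54 to 7.17 in KO-O2. Camp was at 0.807 to 2.16 CPM in WT-RA against 0.613 to 0.722 in WT-O2, and 0.949 to 3.76 in KO-RA against 0.568 to 1.01 in KO-O2. Lyz2 was at 1951 to 2874 CPM in WT-RA against 1536 to 1631 in WT-O2, and Cybb at 40.8 to 46.7 against 30.8 to 34.2. In the knockouts Lyz2 was at 2129 to 2285 CPM in KO-RA against 1284 to 1482 in KO-O2. Cybb did not fall there, at 27.8 to 30.8 CPM in KO-RA against 28.6 to 34.5 in KO-O2. Chil3, a chitinase-like protein of alveolar macrophages and neutrophils, fell in WT, with -2.54 (adjusted p = 0.039), as did Padi4, which citrullinates histones in neutrophils, with -1.01 (adjusted p = 0.011). In GSDMD-KO Padi4 had -0.98 (adjusted p = 0.015) and Chil3 -1.36 (adjusted p = 0.23).

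Several defining neutrophil genes had few reads. Ly6g, the standard surface marker, had 10, 9, 12 and 11 reads in all in WT-RA, WT-O2, KO-RA and KO-O2, and Elane, neutrophil elastase, had 1, 2, 7 and 4. Ctsg, cathepsin G of neutrophil granules and mast cells, too scarce for the test, had 1 read in WT-RA against 29 in WT-O2 (95% counting interval of the ratio 4.78 to 1177) and 3 in KO-RA against 18 in KO-O2 (1.77 to 32.2), with no overlap between lungs in either genotype. Mpo was more abundant, at 1.18 to 1.72 CPM in WT-RA and 1.17 to 1.62 in WT-O2. Granulopoiesis genes gave 1 called higher and 1 lower of 11 in WT and none in GSDMD-KO (edgeR; 5 of 11 had an unadjusted p under 0.05 there, beside 47.4% of all genes). Socs3, the feedback inhibitor of Csf3 and interleukin-6 signals, rose in WT by 1.13 (adjusted p = 3.9e-06) and had 0.90 in GSDMD-KO (adjusted p = 3.6e-05). The 1 called lower in WT was Cebpe, at 0.235 to 0.860 CPM in WT-RA against 0.0682 to 0.203 in WT-O2 (log2 fold change -1.72). These are 40 reads in all against 12. In the knockouts Cebpe was at 0.0678 to 0.342 CPM in KO-RA and 0.175 to 0.460 in KO-O2.

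**Figure D4:**
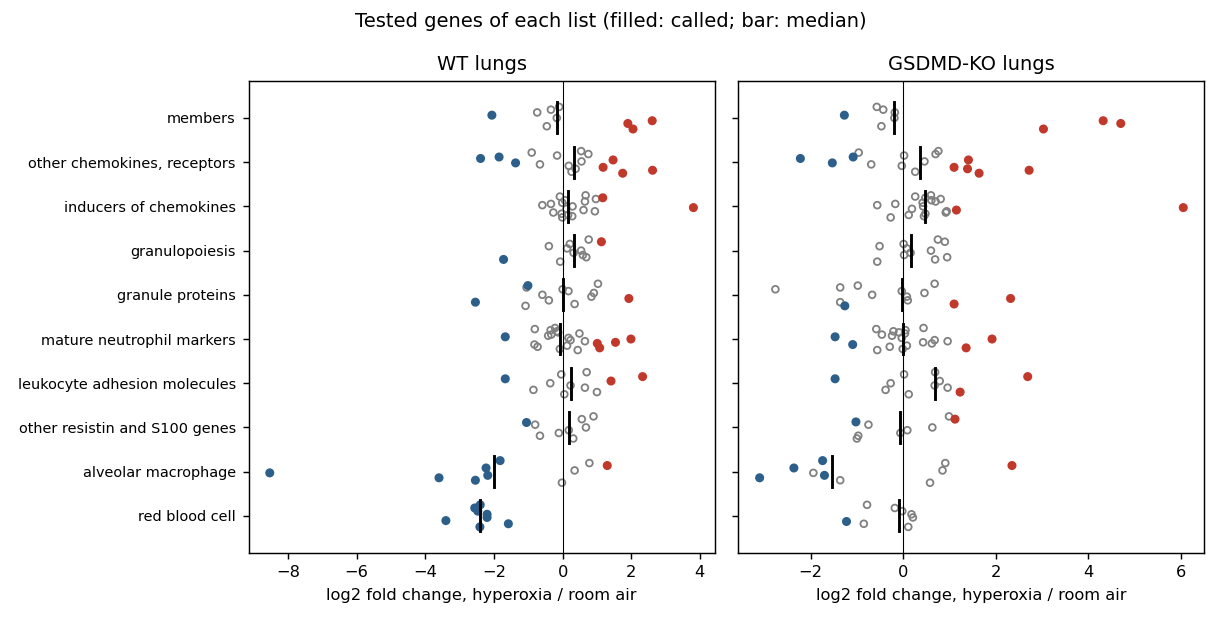
Log2 fold change of hyperoxia against room air for each tested gene of 10 lists in WT and GSDMD-KO lungs; filled points are called genes, open points are not, and the bar is the list's median. Red blood cell genes are lower in WT lungs (8 of 8 called), alveolar macrophage genes are called in both directions in each genotype, and the medians of the neutrophil lists lie near 0.

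Within groups, lungs with more S100a8 also had more S100a9. The correlation of their deviations from the group means over 12 lungs was 0.79 (Spearman's rank correlation 0.80) on log2 CPM. Without the 2 lungs farthest from the median it was 0.67 when these were picked by S100a9 and 0.56 when picked by S100a8. S100a8 was 34th of 14678 genes by this measure. Retnlg did not go with the pair, at 0.01 with S100a9 and 0.01 with S100a8. Cxcr2 was at -0.23 with S100a9 and 0.09 with S100a8, and Fpr1 at 0.15 and 0.45. The 3 genes most like S100a9 were Setd4 (0.94), Abhd17c (0.91) and Garem1 (0.90), and those most like S100a8 were Tnfrsf13c (0.91), Oard1 (0.90) and Cep72 (0.89). For Cxcl5 they were Vcp (0.96), Nol11 (0.94) and Thumpd1 (0.93), and for Cxcl15 Ptger1 (0.94), Snhg11 (0.92) and Cpt1b (0.91). Cxcl5 itself correlated with S100a9 at -0.25 and with Cxcl1 at -0.24. These are descriptions over the lungs of 1 table, scaled to their library totals, and the highest of 14678 correlations over 12 points is high in any such ranking.

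In the retina, recovered in room air since day 12, the 10 genes together summed to 1.11 to 4.67 CPM in a library, against 461 to 757 in a lung. Without Cxcl15 the lung sums were 34.6 to 51.4 CPM and the retina sums 1.08 to 4.61. The value of a single read in the retina table depended on transcript length. In genes seen in few libraries, the smallest nonzero value had a median of 17.4 counts for transcripts up to 300 bases and 0.766 for those of 2000 to 4000 bases, whereas in the lung it was 1.00 at every length. By genes of like length, 1 read was worth about 5.90 counts for S100a8 and 0.641 for Cxcr2.

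Only Cxcr2, Csf3 and Cxcl5 had counts in all 12 retinas. Cxcr2 was at 0.400 to 0.813 CPM in WT-RA against 0.748 to 0.884 in WT-O2, and 0.507 to 0.913 in KO-RA against 0.610 to 0.888 in KO-O2. Csf3 was at 0.305 to 0.770, 0.136 to 0.748, 0.270 to 0.672 and 0.451 to 0.847 in the same order. Every group of either gene overlapped the others.

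S100a8 had 0 counts in all 6 room air retinas. It had 0, 18.4 and 17.2 counts in WT-O2 and 0, 12.4 and 23.5 in KO-O2. Since 3 reads would be worth about 17.7 counts, no fold is given. S100a9 was at 0 in all WT-RA retinas, at 17.0 counts in 1 of 3 WT-O2 retinas, at 26.7 and 5.0 in 2 KO-RA retinas and at 10.6 and 16.2 in 2 KO-O2 retinas. With 3 reads of it worth about 16.2 counts, these values rest on few reads. Cxcl1 was highest in 1 WT-O2 retina at 1.03 CPM and at 0 in another of the same group.

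Cxcl2, Cxcl15, Fpr1 and Retnlg were too low to be tested in the retina. Cxcl2 was at 0 in 8 of 12 retinas, Retnlg in 10, Fpr1 in 6 and Cxcl15 in 3, and Cxcl15, so abundant in the lung, did not exceed 0.170 CPM. Of the 6 members tested none was called by edgeR or DESeq2 in any of the 5 comparisons. Of all 19173 genes tested, 2.04% were called with hyperoxia in WT, 2.19% in GSDMD-KO, 0.292% for KO-O2 against WT-O2, 0.00522% for KO-RA against WT-RA and 0.00522% for the interaction, all by edgeR. In the same order DESeq2 called 3.37%, 3.46%, 0.908%, 0.156% and 2.97%. With 1 mouse left out edgeR called 196 to 504, 151 to 439, 6 to 83, 0 to 1 and 0 to 340 genes. DESeq2 gave no adjusted p in 20 of the 30 tests of a member, so its count of 0 says little here. At an unadjusted p under 0.05 there was 1 member of 6, S100a8, in each hyperoxia comparison, beside 17.4% of all genes in WT and 20.3% in GSDMD-KO. S100a8 had 0 counts in all 6 room air retinas, so it entered the test only through the hyperoxia retinas. With 1 read worth about 5.90 counts, the fit also took more counts than there were reads. These p-values therefore cannot decide whether S100a8 rose. Y-linked transcripts were present in all 6 room air retinas and in 1 of 3 hyperoxia retinas of each genotype, so exposure and sex are partly mixed there and their parts were not tested.

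**Figure D5:**
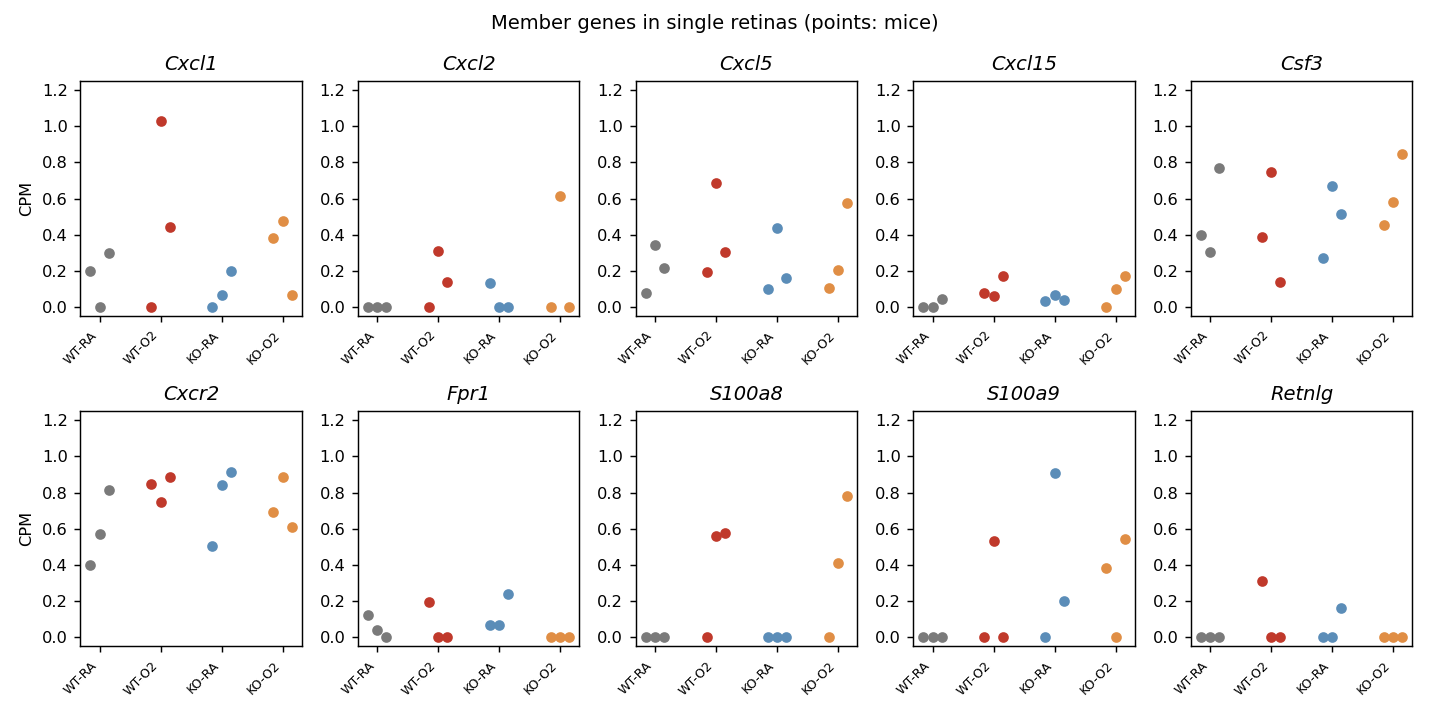
Levels of the 10 genes in single retinas in CPM, 1 point for each mouse, on the same axis in all panels. S100a8 is at 0 in all 6 room air retinas and above 0 in 4 of 6 hyperoxia retinas, and the other genes overlap between groups or are near 0.

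The lists used for the lung were tested in the retina too. Of 10 mature neutrophil markers 1 was called higher in WT, the integrin chain Itgam (log2 fold change 1.04, adjusted p = 0.091), which microglia also carry, and none in GSDMD-KO, where 2 had an unadjusted p under 0.05. Of 9 granulopoiesis genes 1 was called higher in WT, Stat3, a transcription factor of cytokine signals in many cells (1.20, adjusted p = 0.028), and none in GSDMD-KO, where 3 had an unadjusted p under 0.05. Of 16 inducers of the ligands none was called in either genotype, with 7 in WT and 4 in GSDMD-KO at an unadjusted p under 0.05 (edgeR). Of 7 granule protein genes tested, Lcn2 alone was called, higher in both genotypes (log2 fold change 1.41, adjusted p = 0.069 in WT and 1.98, adjusted p = 0.018 in GSDMD-KO). Cxcr4 was the 1 of 11 other chemokines and receptors called, also higher in both (2.22, adjusted p = 0.0091 and 1.71, adjusted p = 0.025). Adhesion molecules had 4 of 9 called higher in WT, led by Pecam1 (1.24, adjusted p = 0.0018) and Icam1 (1.10, adjusted p = 0.059), and none in GSDMD-KO, where 4 had an unadjusted p under 0.05 (edgeR). Of 10 microglia and macrophage markers, 4 were called higher in WT and 5 in GSDMD-KO, among them C1qa (1.10, adjusted p = 0.024 and 1.57, adjusted p = 0.0049) (edgeR). The endothelial list, which shares Pecam1 with the adhesion molecules, had 3 of 6 called higher in WT and none in GSDMD-KO, where 4 had an unadjusted p under 0.05. Its summed level was 85.6 to 103 CPM in WT-RA against 164 to 188 in WT-O2, and 103 to 114 in KO-RA against 138 to 153 in KO-O2. The part of these cell types in the adhesion and chemokine values was not tested.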

How the data were processed

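RNA of 12 lungs and 12 retinas, 1 tissue per mouse, was sequenced as paired reads. The authors assigned reads to mouse transcripts with kallisto, summed them per gene with tximport and deposited the resulting expected counts, which are estimates and need not be whole, in a separate table for each tissue; the tximport setting and the build are not given alike in the sources used here (GRCm39 in the methods, mm10 in the labels). Genes were named by Ensembl identifier from a GRCm38 annotation (GENCODE M21), whose coordinates are printed. Groups came from the labels, which name no batch. Counts were rounded, and genes with low counts were removed with edgeR's filterByExpr, which left 16819 lung and 19173 retina genes. edgeR 4.0.16 (TMM scaling, quasi-likelihood F-test, robust, 1 term per group over the 12 libraries of a tissue) gave log2 fold changes, SEs and p-values, with Benjamini-Hochberg adjustment over all genes tested. Calls followed the study's rule of an adjusted p under 0.1, a p under 0.05 and a fold of at least 2, without the fold for the interaction. The script was tested on simulated data. CPM used TMM factors of 0.955 to 1.02 in the lung and 0.863 to 1.10 in the retina. At 28763661 to 29604254 counts per lung library, 1 read is about 0.034 CPM, so the scarce ligands carry counting error beside the spread between mice. Alternatives were DESeq2 1.42.0, RLE scaling, library totals, no filter, only the groups compared, a fold of 1.5 and leaving out each mouse. All 10 members were named in both tissues; of other lists, up to 3 called genes with the smallest p per comparison (some are not reported here), and, for the 2 most abundant ligands and granule genes, the 3 genes with the highest correlation. The members and lists were chosen with earlier results of these data known.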

Additional observations from a re-analysis of the deposited data

How the results depend on the processing

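Counts of called members held: 4 of 9 in both lung hyperoxia comparisons and 0 in the other lung comparisons and in all retina comparisons, under DESeq2, RLE scaling, library totals, no filter, only the groups compared and a fold of 1.5, of which the groups compared could not be run for the interaction, and the fold is no part of its rule. DESeq2 gave no adjusted p for 20 of 30 retina values and 1 of 45 lung values, which were not counted as calls. With 1 mouse left out at a time the WT lung count was 4 to 5, the GSDMD-KO lung count 4 to 4 and every other count 0 to 0. Of 1136 member fold changes recomputed, 1 became called (Retnlg in WT lungs) and none lost a call. These leave out S100a8 and S100a9 in the retina, where fitted values rest on groups at 0, although their calls were counted. Signs turned only for members that were not called. The Il6 ratio of reads in GSDMD-KO lungs was 31.0 without the first KO-O2 lung, an alternative chosen after seeing the data. With library totals, S100a8 for KO-O2 against WT-O2 in the lung was at 0.00, and in the retina Csf3 was at 0.06 with hyperoxia in WT and 0.16 for KO-RA against WT-RA, and Cxcr2 at 0.03 with hyperoxia in GSDMD-KO; that scaling moved the median of all retina genes by up to 0.24. With 1 mouse left out, log2 fold changes that turned sign ran over these ranges. In the lung, for hyperoxia in GSDMD-KO, Cxcr2 from -0.33 to 0.04 and Retnlg from -0.37 to 0.12. In the lung, for KO-O2 against WT-O2, Cxcl15 from -0.10 to 0.13, Cxcr2 from -0.08 to 0.29, S100a8 from -0.13 to 0.19, Fpr1 from -0.24 to 0.13 and Retnlg from -0.14 to 0.35. In the lung, for KO-RA against WT-RA, Cxcl15 from -0.04 to 0.04, Cxcr2 from -0.12 to 0.22, S100a8 from -0.14 to 0.26 and S100a9 from -0.01 to 0.40. In the lung, for the interaction, Cxcl15 from -0.11 to 0.13, Cxcr2 from -0.18 to 0.21 and S100a8 from -0.25 to 0.15. In the retina, for hyperoxia in WT, Csf3 from -0.91 to 0.26. In the retina, for hyperoxia in GSDMD-KO, Cxcl5 from -0.58 to 1.16 and Cxcr2 from -0.26 to 0.12. In the retina, for KO-O2 against WT-O2, Cxcl1 from -1.24 to 0.46 and Cxcl5 from -1.33 to 0.24. In the retina, for KO-RA against WT-RA, Cxcl5 from -0.69 to 0.65 and Csf3 from -0.32 to 0.46. In the retina, for the interaction, Cxcl1 from -0.48 to 1.49 and Cxcl5 from -1.46 to 0.28. No paired analysis was possible because the labels give mouse numbers and no replicate number or litter shared between groups. Depth limits Csf3 in the lung, Cxcl2 in KO-RA lungs, and all 10 genes in the retina, where a read of a short transcript is worth several counts.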
